A study of Homo sapiens with 4 samples.

Results

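The set described here holds 42 genes of acid-base and lactate transport: 15 carbonic anhydrases, 9 bicarbonate transporters of the SLC4 family, 2 anion exchangers of the SLC26 family, 6 sodium-proton exchangers of the SLC9 family and 10 monocarboxylate transporters of the SLC16 family. Members were taken by gene symbol, as families of transporters and enzymes, and each gene was represented by its transcript of highest mean count. They are 42 of the 34603 genes with a symbol in the data, and 30 of them reached a mean of 50 counts over both cell lines, as did 15475 of all genes.

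MDA-MB-231-LM2 (LM2) is a subline of MDA-MB-231 breast carcinoma cells that metastasizes strongly to the lung, and MDA-MB-231 itself is the parental, basal and mesenchymal-like line. LM2 was grown in DMEM with serum in an incubator gassed with CO2, and MDA-MB-231 in Leibovitz L-15 with serum in air without added CO2. Medium, CO2 and cell line therefore cannot be told apart in any value below. Sequencing of RNA was labelled as 2 samples per cell line, but the tables give each line a single column. No source used here says whether that column pools both samples. There is thus no replicate check and no test between the lines. A ratio is the LM2 count over the MDA-MB-231 count after division by the column totals, and every bracketed range is an exact (Clopper-Pearson for ratios, Poisson for levels) 95% interval, which covers counting error only.

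Carbonic anhydrases interconvert CO2 and water with bicarbonate and a proton, in the cytosol, in mitochondria or on the outer face of the cell. Cells that ferment glucose export lactate together with a proton through monocarboxylate transporters, import bicarbonate through SLC4 proteins and extrude protons through SLC9 exchangers. Leibovitz L-15 is buffered by phosphate and free amino acids and is made for use in air, whereas DMEM is buffered by bicarbonate and CO2.

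The columns held 128985870 counts in LM2 and 130689252 counts in MDA-MB-231. All 6 markers of the line (VIM, CD44, AXL, CAV1, KRT8 and KRT18) had at least 14048 counts in LM2 and 17246 counts in MDA-MB-231. The estrogen receptor gene ESR1 had 8 and 2 counts, and the progesterone receptor gene PGR had 2 and 7 counts, in LM2 and MDA-MB-231. ERBB2, listed with these receptors, was not near 0, at 1922 counts (RPKM 3.22) in LM2 and 2966 counts (RPKM 4.91) in MDA-MB-231. Among markers of other cell types, CD3E and HBB were at 0 in both lines, and PTPRC, VWF and ALB had at most 19 counts. CD68, a lysosomal protein gene, had 4266 counts in LM2 and 5583 counts in MDA-MB-231, and the endothelial gene PECAM1 had 343 counts in LM2 and 48 counts in MDA-MB-231. The markers of other cell types summed to 4635 counts in LM2 and 5652 counts in MDA-MB-231, and their part in the results was not tested.

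Across the 30 members with a mean of at least 50 counts, 7 were over 2-fold higher in LM2: SLC16A6, SLC16A1, CA2, CA12, CA14, SLC4A8 and CA11. Another 5 were over 2-fold lower in LM2, namely SLC16A4, CA5B, SLC4A11, SLC16A10 and SLC16A5, and 18 lay within 2-fold. The higher members made up 23.3% of the 30, beside 4.61% of all genes at this level, and the lower ones 16.7%, beside 6.84% of all genes. The median log2 ratio of the members was 0.17, beside 0.00 over all genes, with 21 members above 0 and 9 below. Their log2 ratios ran from −1.45 for SLC16A4 to 4.75 for SLC16A6. Counting intervals lay wholly beyond 2-fold for 7 members, 4 of them higher (SLC16A6, SLC16A1, CA2 and CA12) and 3 lower (SLC16A4, CA5B and SLC4A11). These were 13.3% and 10.0% of the 30 members, beside 3.24% higher and 4.68% lower of all genes at this level by the same criterion.

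Most of the members beyond 2-fold were expressed at low levels. RPKM is the count after scaling to the length of the transcript and the total of the column, and an RPKM of 1 stands for 129 counts per kilobase in LM2 and 131 in MDA-MB-231. Among the 14 members with an RPKM of at least 1 in either line, 2 were higher and 2 lower (14.3% each), beside 3.14% and 5.11% of all genes at that level. Among the 16 members with an RPKM under 1 in both lines, 5 were higher (31.2%) and 3 lower (18.8%), beside 10.2% and 13.5% of all such genes.

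**Figure D1:**
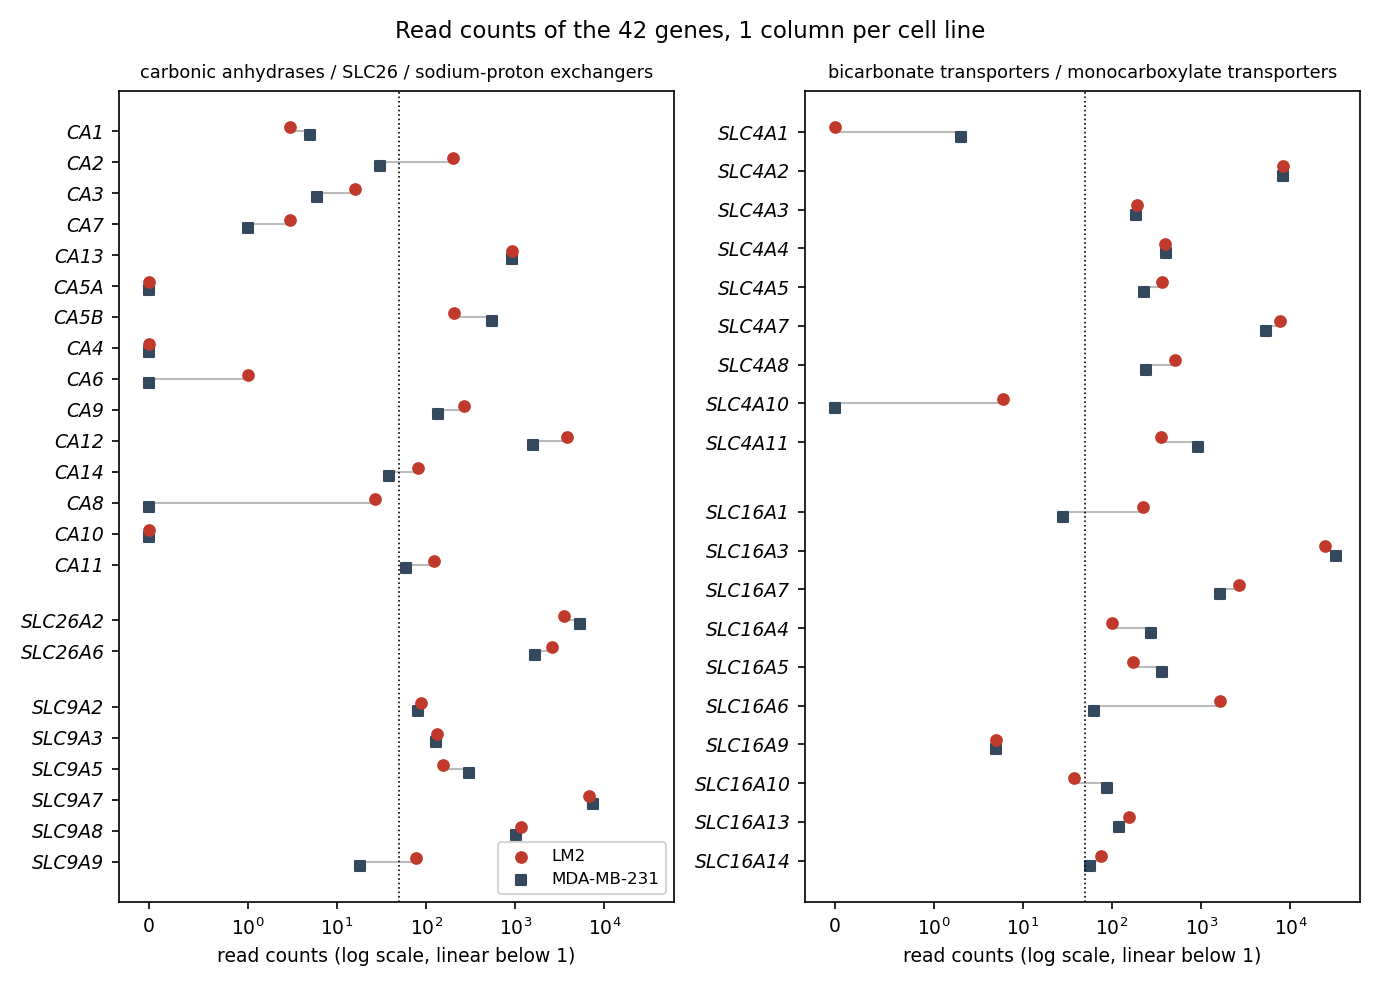
Read counts of all 42 genes in LM2 (circles) and MDA-MB-231 (squares), 1 column per cell line, on an axis that is logarithmic above 1 count and linear below, with a dotted line at 50 counts. SLC16A6 shows the widest separation among members above 50 counts, with 1645 counts in LM2 and 62 counts in MDA-MB-231, and SLC16A3 lies highest in both lines.

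The most abundant member in either line was SLC16A3, at an RPKM of 91.1 in LM2 and 118 in MDA-MB-231. SLC4A2 came next, at an RPKM of 15.6 in LM2 and 15.4 in MDA-MB-231. Behind them in LM2 stood SLC4A7, CA12 and SLC26A6, at RPKM values of 7.72 (7.55–7.90), 7.33 (7.10–7.57) and 7.32 (7.04–7.61), which did not differ beyond their counting intervals. In MDA-MB-231 the next places were held by SLC9A7 at 5.67 (5.54–5.80), SLC4A7 at 5.32 (5.18–5.47) and SLC26A2 at 5.02 (4.88–5.15), whose intervals did not overlap.

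Of the 15 carbonic anhydrases, 7 reached 50 counts, and of these CA2, CA12, CA14 and CA11 (4 genes) exceeded 2-fold in LM2 and 1, CA5B, lay over 2-fold below, with a median log2 ratio of 1.07. The shares of the 7 were 57.1% higher and 14.3% lower, beside 4.61% and 6.84% of all genes at this level. Among all genes with an RPKM under 1 in both lines, where CA2, CA14, CA11 and CA5B lie, the shares were 10.2% and 13.5%. Summed over the family, RPKM was 12.8 in LM2 and 6.85 in MDA-MB-231. CA12 made up 57.1% of that sum in LM2 and 44.4% in MDA-MB-231.

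CA12 encodes a membrane enzyme whose active site faces the outside of the cell. It had 3759 counts (RPKM 7.33) in LM2 and 1579 counts (RPKM 3.04) in MDA-MB-231, a ratio of 2.41 (2.27–2.56). Both of its listed transcripts gave the log2 ratio 1.27, from 3756 and 3759 counts in LM2 and 1577 and 1579 in MDA-MB-231. Transcripts of a gene that overlap can count the same reads. Like ratios among them, here and below, are therefore not separate measurements. The second tumour-associated membrane enzyme, CA9, had 266 counts (RPKM 1.33) in LM2 and 135 counts (RPKM 0.665) in MDA-MB-231. Its ratio of 2.0 (1.62–2.47) fell just short of 2-fold before rounding. CA14, a related membrane enzyme, had 80 counts in LM2 and 38 counts in MDA-MB-231, 2.13-fold higher in LM2 (1.43–3.23). CA4, which is anchored to the outer membrane leaflet, was at 0 in both lines, and the secreted CA6 had 1 count in LM2 and 0 in MDA-MB-231. The 5 extracellular enzymes together came to an RPKM of 9.02 in LM2 and 3.87 in MDA-MB-231, a ratio of 2.33.

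The CA9 transcript overlaps a neighbour. In GENCODE release 29, 39.7% of the bases of its transcript lie under exons of ARHGEF39, a guanine nucleotide exchange factor gene on the other strand. No source used here states whether counting used strand, so reads of both genes cannot be told apart over that stretch. ARHGEF39 had 1665 counts (RPKM 3.43) in LM2 and 1690 counts (RPKM 3.44) in MDA-MB-231, a log2 ratio that rounds to 0, and its RPKM was above that of CA9 in both lines.

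CA9 is a textbook target of the hypoxia-inducible factors, and CA12 is known to rise in hypoxia as well. Their RefSeq promoter windows (GRCh38.p14, 250 bases before to 50 after the start site, 5′ to 3′ on the strand of the gene) are shown because the extracellular enzymes carry most of the family's RNA. Capitals mark the hypoxia-response core as ACGTG or GCGTG, read on either strand, so that CACGT and CACGC are the reverse-strand forms. The CA9 window is chr9:35673678-35673977 on the plus strand and the CA12 window chr15:63381797-63382096 on the minus strand.
CA9: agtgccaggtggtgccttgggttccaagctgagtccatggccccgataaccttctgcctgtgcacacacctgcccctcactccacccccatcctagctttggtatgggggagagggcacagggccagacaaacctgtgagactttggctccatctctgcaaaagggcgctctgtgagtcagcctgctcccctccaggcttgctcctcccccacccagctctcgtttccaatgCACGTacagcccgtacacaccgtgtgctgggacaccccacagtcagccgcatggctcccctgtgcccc
CA12: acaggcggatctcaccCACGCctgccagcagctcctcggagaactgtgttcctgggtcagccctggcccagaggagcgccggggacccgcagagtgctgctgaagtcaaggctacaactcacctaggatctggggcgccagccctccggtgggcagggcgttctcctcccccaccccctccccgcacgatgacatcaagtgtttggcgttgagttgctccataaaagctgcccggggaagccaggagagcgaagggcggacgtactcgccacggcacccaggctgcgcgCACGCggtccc
The CA9 window held 1 such core, on the reverse strand, beginning 18 bases before the start site. The CA12 window held 2 reverse-strand GCGTG cores, beginning 234 bases before and at base 40 after the start site. ACGTG was present in 21.4% and GCGTG in 36.5% of 35116 promoter windows of this length, and one or the other in 48.4%. Of the 29 members with a promoter window, 17 (58.6%) held one or the other in the window nearest to their transcript. The distance to the transcript start was 315 bases for CA12, 615 for CA14, 3730 for SLC4A3, 33514 for SLC4A8 and 200084 for SLC4A10. It was at most 154 bases for the rest. These matches describe the letters only.

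The cytosolic enzymes varied among themselves. CA2, the abundant fast enzyme of red cells, kidney and osteoclasts, had 200 counts (RPKM 0.931) in LM2 and 30 counts (RPKM 0.138) in MDA-MB-231, 6.75-fold higher in LM2 (4.59–10.3). CA13 had 922 counts (RPKM 1.85) in LM2 and 916 counts (RPKM 1.82) in MDA-MB-231, a ratio of 1.02 (0.930–1.12). Both genes lie in the carbonic anhydrase cluster on chromosome 8. CA3, the muscle and fat enzyme, had 16 and 6 counts, CA1, an erythrocyte enzyme, 3 and 5 counts, and CA7, a brain and muscle enzyme, 3 and 1 counts, in LM2 and MDA-MB-231. The RPKM of CA13 exceeded that of CA2 in both lines, though by less in LM2. Exons of AC011773.3 on the other strand cover 5.01% of the CA13 transcript.

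The mitochondrial enzyme CA5B ran the other way. It had 207 counts (RPKM 0.266) in LM2 and 541 counts (RPKM 0.686) in MDA-MB-231, 2.58-fold lower in LM2 (2.19–3.04), while CA5A, the liver form, was at 0 in both. CA5BP1, a pseudogene of CA5B, had 172 counts in LM2 and 364 counts in MDA-MB-231, 2.09-fold lower in LM2 (1.74–2.52), and reads of such copies can be split between them. These are by coincidence the counts of SLC16A5, from transcripts of 994 bases for CA5BP1 and 1951 bases for SLC16A5. Of the CA5B transcript, 27.4% lies under INE2, a gene of the other strand with 52 counts in LM2 and 127 counts in MDA-MB-231 (log2 ratio −1.27, beside −1.37 for CA5B). The 30 genes nearest to CA5B on chromosome X had a median log2 ratio of −0.95, and 14 of them were over 2-fold lower in LM2. Of these 30 genes, 25 had a higher ratio than CA5B and 5 a lower one.

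The carbonic anhydrase-related proteins lack catalytic activity. CA11 had 124 counts in LM2 and 60 counts in MDA-MB-231, 2.09-fold higher in LM2 (1.53–2.90). CA8, which binds the inositol trisphosphate receptor, had 27 counts in LM2 and 0 in MDA-MB-231, at least 9.12-fold higher in LM2 against a floor of 3 counts in that column (the interval itself begins at 6.92). CA10 was at 0 in both lines. A count of 0 allows an RPKM of up to 0.0124 for CA8 in MDA-MB-231.

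**Figure D2:**
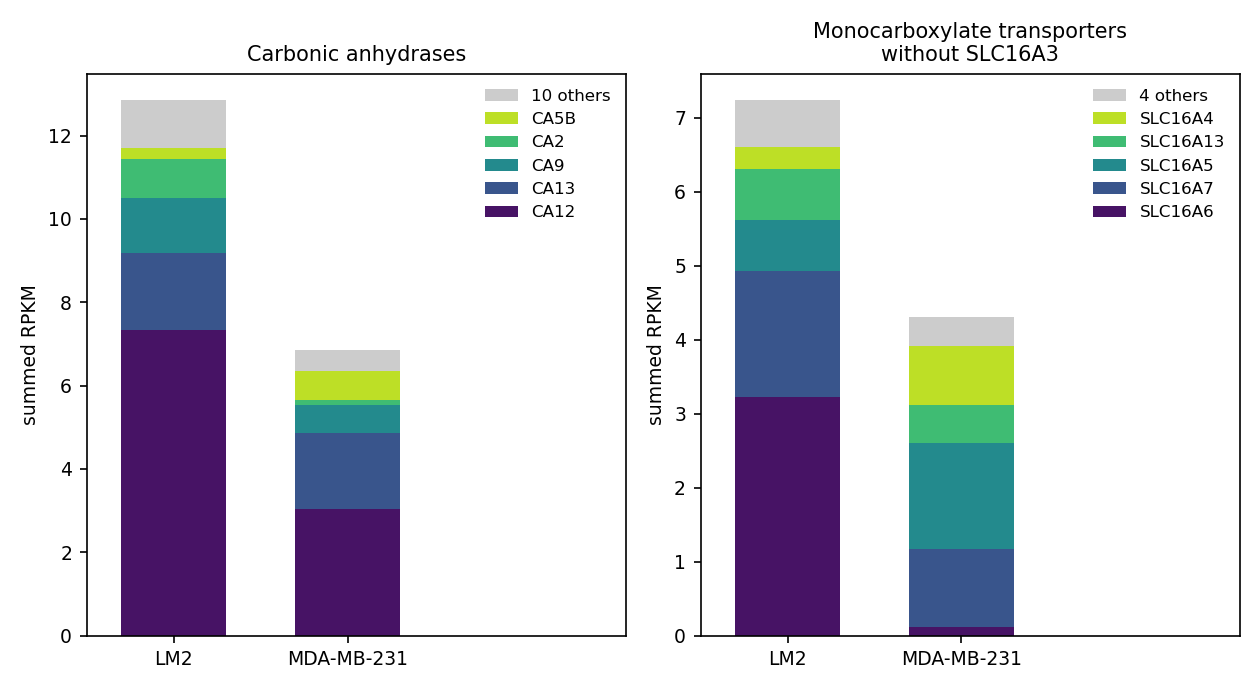
Summed RPKM of the carbonic anhydrases (left panel) and of the monocarboxylate transporters other than SLC16A3 (right panel), with LM2 as the left bar of each panel, coloured by gene. The carbonic anhydrase bars reach 12.8 in LM2 and 6.85 in MDA-MB-231, with CA12 as the largest segment in both, and the transporter bars reach 7.25 in LM2 and 4.30 in MDA-MB-231, where SLC16A6 is the largest segment in LM2 alone.

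Bicarbonate transporters of the SLC4 family differed less as a group. Of 9 members, 7 reached 50 counts, with 1 over 2-fold higher (SLC4A8), 1 over 2-fold lower (SLC4A11) and a median log2 ratio of 0.04. Each of these 2 genes was 14.3% of the 7, beside 4.61% higher and 6.84% lower of all genes at this level. The summed RPKM of the 9 members was 25.8 in LM2 and 24.0 in MDA-MB-231.

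Among the chloride-bicarbonate exchangers, SLC4A2, the widely expressed exchanger that loads cells with acid, had 8339 counts in LM2 and 8336 counts in MDA-MB-231, a ratio of 1.01 (0.983–1.04). It supplied 60.5% of the family's RPKM in LM2 and 64.1% in MDA-MB-231. Exons of AC010973.2 on the other strand cover 16.8% of the SLC4A2 transcript. AC010973.2 had 1529 counts (RPKM 9.64) in LM2 and 1523 counts (RPKM 9.47) in MDA-MB-231. The part of its reads in the SLC4A2 counts was not tested. SLC4A3, known from heart and brain, had 189 and 186 counts, a ratio of 1.03 (0.836–1.27). SLC4A1, the anion exchanger of red cells, had 0 counts in LM2 and 2 in MDA-MB-231. The interval included 1 for all 3 of these exchangers.

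The sodium-coupled transporters, which bring bicarbonate into the cell or in some tissues export it, had ratios between 1.0 (SLC4A4) and 2.12 (SLC4A8) in the 4 genes that reached 50 counts. SLC4A7, an electroneutral sodium-bicarbonate cotransporter known from breast tissue, had 7702 counts (RPKM 7.72) in LM2 and 5380 counts (RPKM 5.32) in MDA-MB-231, a ratio of 1.45 (1.40–1.5). SLC4A8, a sodium-driven chloride-bicarbonate exchanger, had 503 counts (RPKM 0.332) in LM2 and 240 counts (RPKM 0.157) in MDA-MB-231, 2.12-fold higher in LM2 (1.82–2.49). The 5 of its 6 listed transcripts that reached 50 counts gave log2 ratios of 1.02 to 1.09. SLC4A4, an electrogenic cotransporter, had 397 counts in LM2 and 401 in MDA-MB-231, a ratio of 1.0 (0.871–1.16). Over all 5 genes of this class, RPKM summed to 8.98 in LM2 and 6.15 in MDA-MB-231, a ratio of 1.46.

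SLC4A5, another electrogenic cotransporter, had 367 counts in LM2 and 229 counts in MDA-MB-231, a ratio of 1.62 (1.37–1.92). Exons of MTHFD2, a mitochondrial folate enzyme gene of the other strand, cover 20.9% of its transcript, and those of AC006030.1 on the same strand cover 59.0%. MTHFD2 had 4101 counts in LM2 and 2470 counts in MDA-MB-231, a log2 ratio of 0.75 beside 0.70 for SLC4A5, and at an RPKM of 13.9 in LM2 and 8.27 in MDA-MB-231 it was far more abundant than SLC4A5 (0.448 and 0.276). The part of MTHFD2 reads in the SLC4A5 counts was not tested. SLC4A10 had 6 counts in LM2 and 0 in MDA-MB-231, on a short transcript of which 66% lies under TBR1. Its 3 NM_ transcripts each had 3 counts in LM2 and 2 in MDA-MB-231.

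SLC4A11, which moves water, protons or ammonia rather than bicarbonate and is known from the corneal endothelium, had 353 counts (RPKM 0.842) in LM2 and 912 counts (RPKM 2.15) in MDA-MB-231. It was 2.55-fold lower in LM2 (2.25–2.89). All 3 of its transcripts gave log2 ratios between −1.37 and −1.35, and 29 of its 30 nearest genes on chromosome 20 had a higher ratio.

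The SLC26 pair lay on opposite sides of 0, both within 2-fold. SLC26A6, an exchanger of chloride for bicarbonate, oxalate or formate, had 2578 counts (RPKM 7.32) in LM2 and 1661 counts (RPKM 4.65) in MDA-MB-231, a ratio of 1.57 (1.48–1.67). SLC26A2, a sulfate transporter mutated in skeletal dysplasias, had 3492 counts (RPKM 3.35) in LM2 and 5295 counts (RPKM 5.02) in MDA-MB-231, 1.5-fold lower in LM2 (1.43–1.56). SLC26A6 was the more abundant of the pair in LM2, and SLC26A2 in MDA-MB-231.

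**Figure D3:**
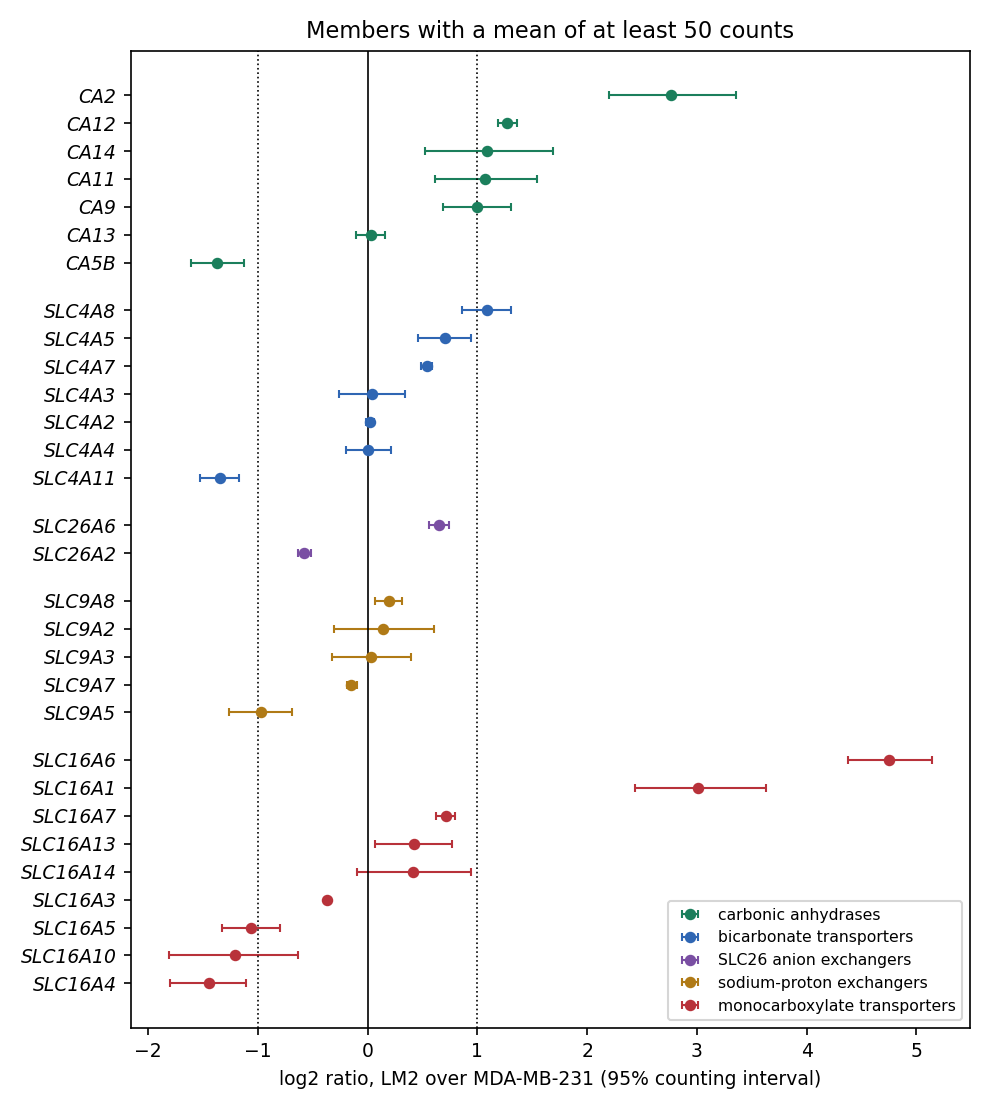
Log2 ratio of LM2 over MDA-MB-231 for the 30 members with a mean of at least 50 counts, grouped by family, with 95% counting intervals as bars and dotted lines at 2-fold. Carbonic anhydrases lie close to or beyond 2-fold higher except CA13 and CA5B, sodium-proton exchangers lie within 2-fold, and monocarboxylate transporters range from −1.45 to 4.75.

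Of the 6 sodium-proton exchangers, 5 reached 50 counts and none of these was beyond 2-fold, and their median log2 ratio was 0.03. Of all genes at this level, 4.61% were over 2-fold higher and 6.84% lower. SLC9A7, which works in the trans-Golgi network and endosomes, had 6619 counts (RPKM 5.12) in LM2 and 7424 counts (RPKM 5.67) in MDA-MB-231, 1.11-fold lower in LM2 (1.07–1.14). It supplied 68.3% of the family's RPKM in LM2 and 70.6% in MDA-MB-231. SLC9A8, a Golgi exchanger, had 1144 counts in LM2 and 1015 counts in MDA-MB-231, a ratio of 1.14 (1.05–1.24).

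The plasma membrane exchangers were scarce. SLC9A5, known from neurons, had 153 counts in LM2 and 304 counts in MDA-MB-231, 1.96-fold lower in LM2 (1.61–2.40) and so just within 2-fold. SLC9A2 had 87 and 80 counts and SLC9A3, the exchanger of kidney and gut brush borders, 131 and 130 counts, in LM2 and MDA-MB-231. The ratios of this pair, 1.10 (0.804–1.51) and 1.02 (0.795–1.31), did not differ from 1 beyond counting error. For SLC9A3, 21.6% of the transcript lies under SLC9A3-AS1 of the other strand, which had 209 counts in LM2 and 245 counts in MDA-MB-231. SLC9A9, an exchanger of recycling endosomes, fell short of 50 counts on average, with 76 counts in LM2 and 18 counts in MDA-MB-231, a ratio of 4.28 (2.53–7.6).

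The monocarboxylate transporters spread most widely. Of 10 members, 9 reached 50 counts, with 2 more than 2-fold higher in LM2, 3 more than 2-fold lower and a median log2 ratio of 0.41. The shares of the 9 were 22.2% higher and 33.3% lower, beside 4.61% and 6.84% of all genes at this level. SLC16A3 supplied 92.6% of the family's RPKM in LM2 and 96.5% in MDA-MB-231, so that the family sum of 98.3 in LM2 and 122 in MDA-MB-231 followed this gene. Without it the sum was 7.25 in LM2 and 4.30 in MDA-MB-231.

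SLC16A3 encodes MCT4, the low-affinity transporter that exports lactate from glycolytic cells. It had 24519 counts in LM2 and 32111 counts in MDA-MB-231, 1.29-fold lower in LM2 (1.27–1.31), and its 6 transcripts gave log2 ratios of −0.37 to −0.36. Exons of CSNK1D on the other strand cover 7.0% of its transcript, and CSNK1D had 2844 counts in LM2 and 2826 counts in MDA-MB-231. SLC16A3, like CA9, is a known target of the hypoxia-inducible factors. RefSeq gives 5 start-site windows for it. The window shown, chr17:82228792-82229091 on the plus strand of GRCh38.p14, was chosen because it holds ACGTG, the form of the core that CA9 also has.
SLC16A3: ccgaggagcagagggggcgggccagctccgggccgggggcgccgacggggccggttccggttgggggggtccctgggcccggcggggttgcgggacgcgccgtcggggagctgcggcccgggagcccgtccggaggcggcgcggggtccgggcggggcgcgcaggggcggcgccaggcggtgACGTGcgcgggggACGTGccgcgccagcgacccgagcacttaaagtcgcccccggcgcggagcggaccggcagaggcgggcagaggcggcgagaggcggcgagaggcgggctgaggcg
Both cores in it are on the forward strand, beginning 68 and 55 bases before the start site. The window nearest to the listed transcript held 0 cores, and the other windows held 0, 3 and 1.

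SLC16A1 encodes MCT1, the transporter that takes up or releases lactate in most tissues. It had 223 counts (RPKM 0.395) in LM2 and 28 counts (RPKM 0.0489) in MDA-MB-231, 8.07-fold higher in LM2 (5.43–12.4). Its level stayed low: the RPKM of SLC16A3 was 231 times that of SLC16A1 in LM2 and 2406 times in MDA-MB-231. Both transcripts of SLC16A1 gave log2 ratios of 3.0 to 3.01, and its ratio was above those of all 30 nearest genes on chromosome 1, whose median log2 ratio was 0.10. SLC16A7, which encodes the high-affinity transporter MCT2, had 2639 counts (RPKM 1.71) in LM2 and 1637 counts (RPKM 1.05) in MDA-MB-231, a ratio of 1.63 (1.54–1.74). The 30 genes nearest to it on chromosome 12 had a median log2 ratio of 0.58, beside 0.71 for SLC16A7. The 3 lactate transporters together had an RPKM of 93.2 in LM2 and 119 in MDA-MB-231.

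SLC16A6, which encodes MCT7, a protein linked to ketone body export in zebrafish liver, had the highest ratio of the members that reached 50 counts. It had 1645 counts (RPKM 3.22) in LM2 and 62 counts (RPKM 0.12) in MDA-MB-231, 26.9-fold higher in LM2 (20.9–35.2). Both transcripts gave log2 ratios of 4.75 to 4.79. Its ratio was above those of all 30 nearest genes on chromosome 17, whose median log2 ratio was 0.22. ARSG, a sulfatase gene of the other strand whose exons cover 3.78% of the transcript, had 266 counts in LM2 and 106 counts in MDA-MB-231. SLC16A6 was 1.88 times as abundant as SLC16A7 by RPKM in LM2 and 0.114 times as abundant in MDA-MB-231.

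The 3 lower members of the family carry little or no lactate as far as is known. SLC16A4, whose substrate is not established, had 99 counts (RPKM 0.292) in LM2 and 274 counts (RPKM 0.797) in MDA-MB-231, 2.73-fold lower in LM2 (2.16–3.47). Its 5 transcripts ranged from −1.5 to −1.29 in log2 ratio, the widest range of any member, and LAMTOR5-AS1, which covers 5.05% of it from the other strand, had 97 counts in LM2 and 54 counts in MDA-MB-231. SLC16A5, which carries drugs such as bumetanide, had 172 counts (RPKM 0.683) in LM2 and 364 counts (RPKM 1.43) in MDA-MB-231, 2.09-fold lower in LM2 (1.74–2.52). SLC16A10, a transporter of aromatic amino acids, had 37 counts in LM2 and 87 counts in MDA-MB-231, 2.32-fold lower in LM2 (1.56–3.51). SLC16A10 lay below all 30 of its nearest genes on chromosome 6, and SLC16A4 and SLC16A5 each lay below 29 of 30.

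The other members of the family differed little. SLC16A13 had 157 counts in LM2 and 119 in MDA-MB-231, a ratio of 1.34 (1.05–1.71). SLC16A14 had 75 counts in LM2 and 57 in MDA-MB-231, a ratio of 1.33 whose interval (0.932–1.92) included 1. SLC16A9, a carnitine transporter, had 5 counts in each line.

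Regional ratios differed around the remaining members beyond 2-fold. The 30 nearest genes had median log2 ratios of 0.27 around CA2, 0.13 around CA12, 0.28 around CA14, −0.32 around CA11 and 0.39 around SLC4A8. CA2 lay above all 30 of its neighbours, and CA12 and SLC4A8 each lay above 28 of 30. SLC4A8 shares 1.47% of its bases with GALNT6 of the other strand, which had 3877 counts in LM2 and 2352 counts in MDA-MB-231.

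Genes that work with the members were counted as lists. The vacuolar proton pump (V-ATPase), which acidifies endosomes and lysosomes, has 25 listed subunits and accessory proteins, of which 22 reached 50 counts. None was over 2-fold higher in LM2, and 1 was over 2-fold lower, ATP6V0A4, a kidney-type subunit with 330 counts in LM2 and 677 counts in MDA-MB-231 (2.02-fold lower, 1.77–2.32). Represented by their longest NM_ transcripts, 0 subunits were over 2-fold lower. In the main count, the shares of the 22 were 0% higher and 4.55% lower, beside 4.61% and 6.84% of all genes at this level. The median log2 ratio of this list was 0.03.

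In lactate and pyruvate handling, 13 of 16 listed genes reached 50 counts, with 2 over 2-fold higher, 1 over 2-fold lower and a median log2 ratio of −0.17. The shares of the 13 were 15.4% higher and 7.69% lower, beside 4.61% and 6.84% of all genes. LDHB, the lactate dehydrogenase subunit that favours pyruvate formation, had 43203 counts (RPKM 218) in LM2 and 20307 counts (RPKM 101) in MDA-MB-231, 2.16-fold higher in LM2 (2.12–2.19). LDHA, the subunit that favours lactate formation, had 74543 counts (RPKM 262) in LM2 and 53443 counts (RPKM 185) in MDA-MB-231, a ratio of 1.41 (1.40–1.43). By RPKM, LDHA thus stood at 1.2 times LDHB in LM2 and at 1.83 times LDHB in MDA-MB-231. PDK4, which inhibits pyruvate dehydrogenase, was 2.06-fold higher in LM2 (1.52–2.81) at 132 counts in LM2 and 65 in MDA-MB-231. Its relative PDK3 was 2.06-fold lower in LM2 (1.91–2.23) at 991 counts in LM2 and 2073 in MDA-MB-231. With column totals taken without the 12 largest transcripts, the counts for this list were 1 higher and 1 lower.

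The ancillary proteins that carry monocarboxylate transporters to the membrane were both expressed. BSG (basigin), the partner of MCT1 and MCT4, had 27033 counts (RPKM 100.4) in LM2 and 19200 counts (RPKM 70.4) in MDA-MB-231, a ratio of 1.43 (1.40–1.45). EMB (embigin), the preferred partner of MCT2, had 879 counts in LM2 and 1001 in MDA-MB-231, 1.12-fold lower in LM2 (1.03–1.23).

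Among 21 acid-base sensors and regulators of the exchangers, 15 reached 50 counts, with 1 over 2-fold higher and none over 2-fold lower, and a median log2 ratio of −0.11. The 1 higher gene was 6.67% of the 15, beside 4.61% higher of all genes. The gene past 2-fold was CIB1, which encodes a calcium-binding protein related to the exchanger cofactor CHP1, with 3194 counts in LM2 and 1607 in MDA-MB-231 (ratio 2.01, 1.90–2.14). With column totals taken without the 12 largest transcripts, the counts for this list were 0 higher and 1 lower. Of the sodium-potassium and proton-potassium ATPases and their FXYD subunits, 5 of 15 reached 50 counts, with a median log2 ratio of 0.25.

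**Figure D4:**
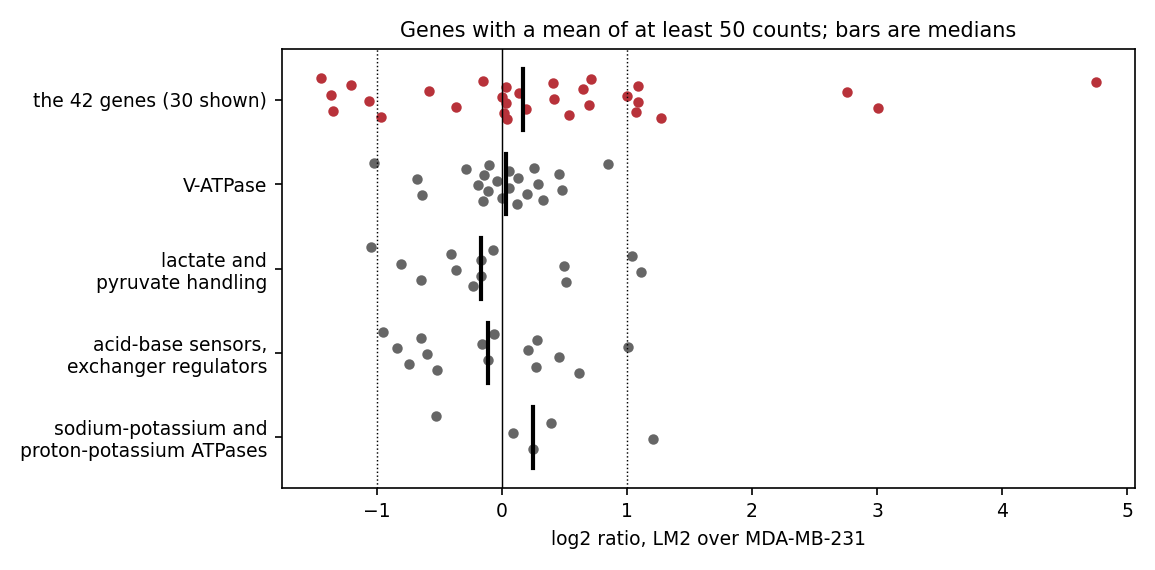
Log2 ratio of LM2 over MDA-MB-231 for the 30 members and the partner genes of 4 lists that averaged at least 50 counts, with bars at the medians and dotted lines at 2-fold. The medians are 0.17 for the members, 0.03 for the V-ATPase, −0.17 for lactate and pyruvate handling, −0.11 for sensors and regulators, and 0.25 for the ATPases.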

How the data were processed

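Per the labels' processing notes, the authors used bcl2fastq, TopHat2 (2.0.13) and the builds hg19 and GRCh37. The sources used here do not give the counter, the use of strand or the gene models. The authors deposited whole-number read counts per transcript, taken as they were, and RPKM values, which equal the count over the listed transcript length and column total to a relative difference of at most 4.98e-06, and the transcript length itself. Symbols were paired for 63146 of 65423 transcripts through RefSeq (GRCh38.p14) and GENCODE release 29. Reads of overlapping transcripts can enter the totals more than once.

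Ratios used column totals of 128985870 counts in LM2 and 130689252 counts in MDA-MB-231, and 2-fold was read at a mean of at least 50 counts. With 1 column per cell line, edgeR's test could not be run. Overlaps came from GENCODE exons, and their shares are of the bases of the GENCODE model paired with the transcript. That model could differ in length from the counted transcript. It had 3838 bases against 10022 for SLC9A7, 2250 against 11938 for SLC16A7, 3775 against 7733 for SLC4A7 and 6413 against 3975 for CA12. Bases outside the model were not examined. Neighbours are the 30 nearest protein-coding genes above the minimum of 50 counts, as many on each side. All 42 members are named, and up to 4 genes beyond 2-fold of each partner list, with BSG, EMB, LDHA, LDHB and CA5BP1 always named. Some list genes that meet this rule are not reported here. The members and lists were chosen with earlier results of these data known. No column of per-sample values was left unused. Ratio intervals were tested on data simulated with counting error alone, the error they assume. That test could not cover differences between cultures or reads counted more than once. Alternatives were TMM and upper-quartile factors (edgeR 4.0.16), size factors (DESeq2 1.42.0), other minimums, folds, transcripts and pseudocounts. Software was Python 3.11.15 with scipy 1.17.1, numpy 2.4.6, pandas 2.3.3 and matplotlib 3.10.9, and R 4.3.3.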

Additional observations from a re-analysis of the deposited data

How the results depend on the processing

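The median log2 ratio of the members stayed above 0 under the 12 alternatives run, from 0.03 on log2(RPKM + 1) to 0.42 without the members under exons of another gene. Some single members close to 0 changed sign with totals without the 12 largest transcripts. Their log2 ratios became −0.04 for CA13, −0.05 for SLC4A2, −0.02 for SLC4A3, −0.06 for SLC4A4 and −0.04 for SLC9A3. The 7 members over 2-fold higher in LM2 became 4 on log2(RPKM + 0.1), 2 on log2(RPKM + 1), 3 at a mean of at least 200 counts, 13 with no minimum, 4 where the whole interval had to lie beyond 2-fold and 11 at 1.5-fold. The 5 over 2-fold lower became 3 on log2(RPKM + 0.1), 0 on log2(RPKM + 1), 3 at 200 counts, 3 by whole intervals, and 3 without the members whose transcript lies under exons of another gene over at least 5% of its bases, a setting chosen after seeing the data. By construction, a pseudocount shrinks the ratios of genes with low RPKM, and a higher minimum tests fewer genes. TMM, upper-quartile and DESeq2 scaling kept all 7 and all 5, with CA9 added under TMM. Totals without the 12 largest transcripts dropped CA11 and added SLC9A5. Of 240 values of single members under other scalings, transcripts and pseudocounts, 211 moved by less than their interval and 29 by more. No paired analysis was possible because the tables hold 1 column per cell line with no replicate number. Of 104 counts for the partner lists under the alternatives, 75 stayed close to the main count and 29 moved, among them the single V-ATPase gene lower and the single sensor gene higher, both of which became 0 where the whole interval had to lie beyond 2-fold. Depth limits the 12 members under 50 counts, which entered no count of members beyond 2-fold except those with a lower minimum or none.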
